A study of Mus musculus with 6 samples.

Results

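The Cyp26 genes are 3 of the 32285 genes in the deposited gene list, and were taken from it by symbol: Cyp26a1 (ENSMUSG00000024987), Cyp26b1 (ENSMUSG00000063415) and Cyp26c1 (ENSMUSG00000062432). Their unique molecular identifiers (UMIs, each marking one captured RNA molecule) were counted in single cells of the microdissected cardiogenic region of C57BL/6 wild type mouse embryos at E10.5, mid-gestation. The labels describe 3 samples from embryos of vehicle-pretreated, normal glycemic females and 3 from embryos of females made hyperglycemic with streptozotocin (STZ), all mated to normal glycemic males, and say that non-cardiac mesoderm, ectoderm and endoderm came along with the heart. The number of embryos behind a sample and the blood glucose of each female are not in the labels. Label descriptions name a chromatin assay, while titles, library source and kit name RNA, and the values were treated as RNA counts.

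Cyp26 enzymes are cytochrome P450 monooxygenases that oxidise all-trans retinoic acid to polar products, and so lower its level in the cells that make them and in their neighbours. Retinoic acid is made from retinol by retinol dehydrogenases such as Rdh10 and then by retinaldehyde dehydrogenases (Aldh1a1, Aldh1a2, Aldh1a3), is carried in the cell by Crabp1, Crabp2 and Fabp5, and acts through nuclear receptors of the Rar and Rxr families. In the heart and pharynx both too much and too little retinoic acid disturb the outflow tract and the pharyngeal arches. Cyp26a1 is also a textbook target of the signal it removes, through binding sites of retinoic acid receptors in its promoter.

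The 3 genes lie at 2 loci in RefSeq's annotation of GRCm38.p6. Cyp26c1 (chr19:37685112-37693320) and Cyp26a1 (chr19:37697738-37701536) are neighbouring protein-coding genes on the same strand, with 4417 bases from the end of Cyp26c1 to the start of Cyp26a1. Cyp26b1 stands alone at chr6:84571414-84593908 on the opposite strand. RefSeq also lists a long noncoding RNA, Gm32342, whose span overlaps Cyp26c1 and takes in most of the gap between them. It is not in the deposited gene list, and whether its reads were counted as Cyp26c1 was not tested.

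The promoters are shown for a feature that the pathway is known for. Capitals mark a direct repeat of a pair of receptor sites of the kind that Rar and Rxr bind together. Sequences are from RefSeq's promoter windows (GRCm38.p6, 250 bases before to 50 after a start), 5′ to 3′ on the strand of the gene, and the promoter stretches end where the RefSeq gene span begins.
Cyp26a1 repeat with its flanks, chr19:37697768-37697797, plus strand: attaaagaTGAACTTTGGGTGAACTaattt
Cyp26a1 promoter, chr19:37697558-37697737, plus strand: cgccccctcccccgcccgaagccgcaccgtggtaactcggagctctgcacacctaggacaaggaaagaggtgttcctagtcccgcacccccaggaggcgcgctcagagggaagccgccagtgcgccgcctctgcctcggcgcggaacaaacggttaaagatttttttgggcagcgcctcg
Cyp26b1 promoter, chr6:84593909-84594060, minus strand: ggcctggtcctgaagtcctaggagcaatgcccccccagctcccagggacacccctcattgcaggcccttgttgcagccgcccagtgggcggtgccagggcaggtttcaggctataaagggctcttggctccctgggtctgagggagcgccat

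The Cyp26a1 repeat lies at chr19:37697776-37697792. It ends 5 bases before the first exon of GENCODE M21, but inside the RefSeq span, which also covers models that start farther upstream. Read on the opposite strand it is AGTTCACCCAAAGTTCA, a pair of AGTTCA sites with a spacer of 5. The search covered both strands for the site AGGTCA, its variant AGTTCA, and likewise GGGTCA beside its variant GGTTCA, repeated with a spacer of 5, 2 or 1. Of 32851 RefSeq windows of 300 bases, 0.0974% held a repeat with a spacer of 5, and 0.588% held any of the 3 spacings. Neither a repeat nor a single site was in the window of Cyp26b1 or that of Cyp26c1 (chr19:37685430-37685729), although 43.7% of all windows held at least 1 site. The Cyp26b1 stretch carries a tataaa, which 8.32% of all windows held on the strand of the gene. The Cyp26c1 window lies inside the RefSeq span of the gene, which starts at 37685112, so the sequence before that start was not searched. A match describes letters in the window and does not show binding.

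Of 53362 barcodes, 35962 were kept as cells, each with 2500 or more genes and no more than 10% mitochondrial UMIs. A barcode suffix of 1 to 6 separates 6 libraries of 4903 to 7136 retained cells and 30533 to 35634 median UMIs per cell. No source used here pairs a suffix with a sample, so streptozotocin and vehicle were not compared, and the libraries are described one by one. The matrix was treated as 1 sample without replicates, and all intervals are 95% and cover counting error only. Barcode sequences were shared between libraries in 2777 of 49236 cases, with 1003 to 1597 per pair among libraries 4, 5 and 6 and 66 to 374 in the other pairs. Among retained cells, 2890 (8.04%) carried such a sequence, though only 141 sequences were retained in more than 1 library. Cells were assigned by marker genes to gated cell types (22426 cells) or to sets tied between gates (1145), and the 12391 ungated cells were clustered without the Cyp26 genes into 24 clusters. Heart tissue was present by its markers, with 7.93% of cells in the cardiomyocyte gate and 2.89% in the endocardial gate.

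Transcripts of the 3 genes were sparse. Cyp26a1 gave 5557 UMIs in 2003 cells (5.57% of cells), Cyp26b1 gave 5615 UMIs in 2352 cells (6.54%), and Cyp26c1 gave 1171 UMIs in 457 cells (1.27%). In UMIs per 1000000 UMIs of all genes (CPM) this was 4.24 (4.13 to 4.35), 4.28 (4.17 to 4.40) and 0.893 (0.843 to 0.946). Levels of different genes are compared as UMIs, with no correction for length, which this 3′ assay does not need, or for capture, which was not measured. Cells with a single UMI made up 49.5% of the Cyp26a1 cells and 55.6% of the Cyp26b1 cells. At least 5 UMIs were found in 344, 300 and 76 cells for Cyp26a1, Cyp26b1 and Cyp26c1, and the highest counts in a cell were 27, 31 and 12. Any of the 3 was detected in 4321 cells (12.02%), of which 3843 had exactly 1 of the genes, 465 had 2 and 13 had all 3.

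As a background level, erythroid cells, which are not known to make these enzymes, had 0.262, 0.524 and 0.0201 CPM of Cyp26a1, Cyp26b1 and Cyp26c1. A UMI was present in 0.681%, 1.09% and 0.136% of them at a median of 65479 UMIs per cell. Cardiomyocytes lay close to this, with 0.186, 0.358 and 0.00717 CPM. Levels in the heart muscle were therefore at or below those of red cells for all 3 genes. At least 5 Cyp26a1 UMIs were found in 2 erythroid cells and 1 cardiomyocyte, and at least 5 Cyp26b1 UMIs in 4 and 2. Part of these low levels thus came from few cells.

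**Figure D1:**
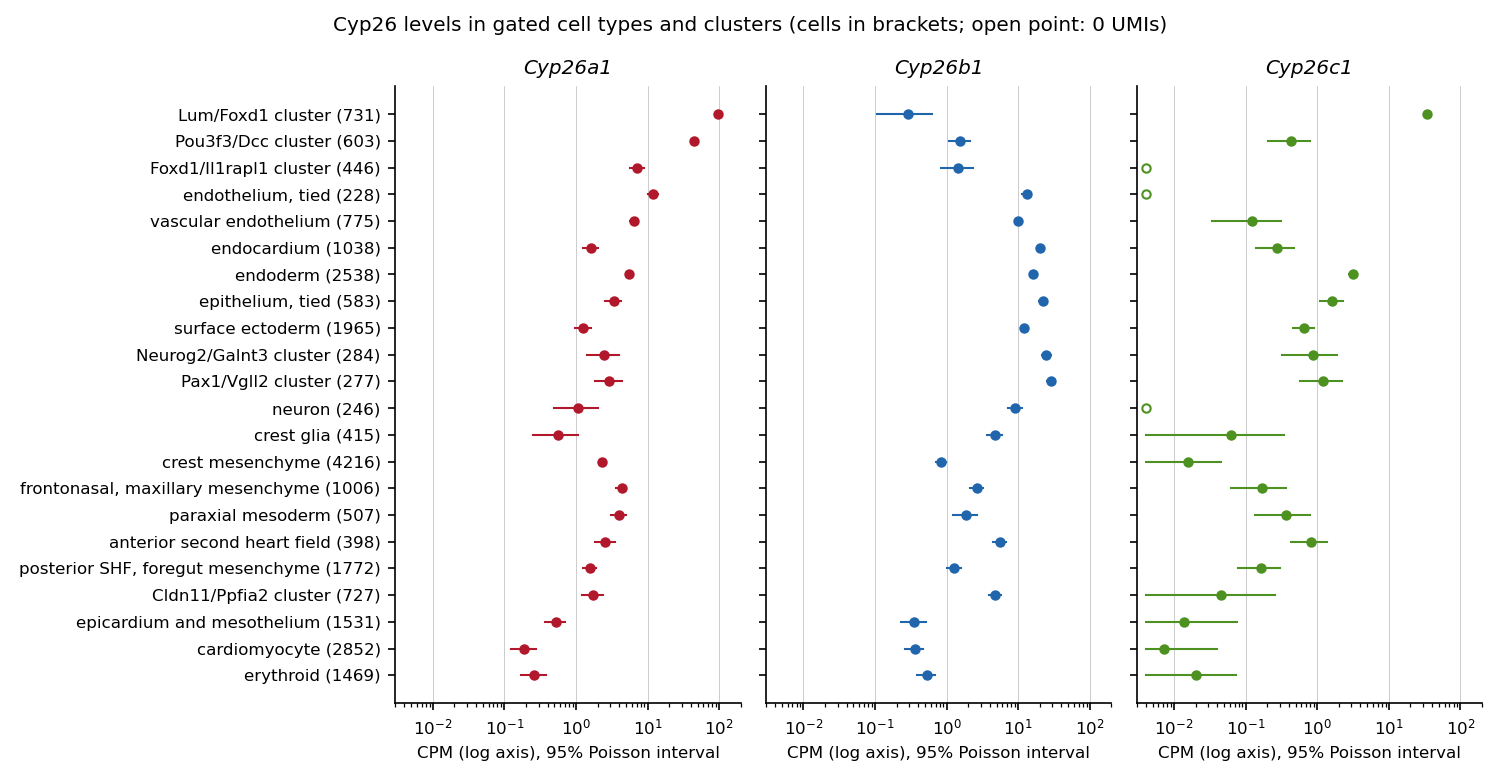
Levels of Cyp26a1, Cyp26b1 and Cyp26c1 in CPM (log axis, 95% Poisson intervals) in 22 gated cell types, tied sets and clusters, with the number of cells in brackets and open points for 0 UMIs. Cyp26a1 peaks in the Lum/Foxd1 and Pou3f3/Dcc clusters (96.3 and 44.7 CPM), Cyp26b1 in epithelial and endothelial sets (10.03 to 28.9 CPM), and Cyp26c1 in the Lum/Foxd1 cluster (34.5 CPM).

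Cyp26a1 was concentrated in 2 clusters. In the first, 731 cells led by Lum (a matrix proteoglycan), Foxd1 (a forkhead factor), Fst (an activin antagonist) and Ebf2, its level was 96.3 CPM (92.2 to 100.7). In the other, 603 cells led by Pou3f3, Dcc (a netrin receptor), Lhx8 and Dlx1, it was 44.7 CPM (42.1 to 47.5). A Cyp26a1 UMI was found in 55.4% and 54.9% of their cells, against 0.681% of erythroid cells, at median depths of 27029 and 38048 against 65479 UMIs. After every cell was thinned to 10000 UMIs these shares were 41.4% and 29.4%. As counted, the level in the first was 2.15 times that in the other (1.998 to 2.32).

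Neither cluster met a marker gate, so both are called by their leading genes. The Lum/Foxd1 cells had Prrx2, a mesenchymal homeobox gene, at 379 CPM and Tbx1, a factor of pharyngeal mesoderm, at 185 CPM. The Pou3f3/Dcc cells had Dlx1 at 88.9 and Dlx2 at 104 CPM, homeobox genes of arch crest mesenchyme, and Meox1 at 66.6 CPM. Other paraxial mesoderm markers did not follow Meox1: Tcf15 was at 10.1 CPM against 9.30 in all other cells, and Pax1 at 0.425 against 11.4. Uncx and Nkx3-2 were at 0 CPM, against 0.436 and 0.137. Each gene named here is a single member of a marker list whose gate these cells did not meet. These genes were part of the data that were clustered, so their levels describe the clusters and test nothing.

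Beyond these clusters the order for Cyp26a1 among 46 sets of at least 50 cells went on with endothelial cells tied between endocardium and vascular endothelium (12.1 CPM, 10.3 to 14.1). Then came a cluster led by Foxd1 and Il1rapl1 (7.11), vascular endothelium (6.48) and endoderm (5.45). A cluster led by Dlx3 and Barx1 among its named genes (4.45), frontonasal and maxillary mesenchyme (4.33) and paraxial mesoderm (3.98 CPM) followed. Vascular endothelium and endoderm lay 1.19-fold apart (1.005 to 1.40), an order that reversed without library 2 (0.972), and most neighbours below them did not differ beyond their intervals. In 16 of the 46 sets the level was under 1 CPM. Smooth muscle had 0 UMIs in 455 cells, which allows up to 0.200 CPM.

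Cyp26b1 had a flatter order and a different one, led by epithelia and endothelia. Its highest levels were in a cluster of 277 cells led by Pax1 and Vgll2 (28.9 CPM, 25.3 to 32.8) and one of 284 cells led by Neurog2 and Galnt3 (24.8 CPM, 21.2 to 28.8). Both carried the epithelial gene Epcam, at 881 and 856 CPM. Epithelial cells tied between endoderm and surface ectoderm followed at 21.8 CPM, endocardium, the inner lining of the heart, at 19.97 CPM (18.7 to 21.3), and endoderm at 16.0 CPM (15.2 to 16.9). Among these first 4 sets, neighbours in the order did not differ beyond the intervals. The Pax1/Vgll2 cluster still lay above the intervals of tied epithelium (19.8 to 24.1) and endocardium. Endocardium exceeded endoderm 1.25-fold (1.14 to 1.36).

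Tied endothelium (13.1), surface ectoderm (12.1), vascular endothelium (10.03) and neurons (9.05 CPM) came next for Cyp26b1. A UMI was found in 21.6% of endocardial cells and 17.1% of endodermal cells, and after thinning in 11.2% and 9.62%, against 1.09% of erythroid cells. Crest mesenchyme, the largest gate with 4216 cells, had 0.827 CPM of Cyp26b1 and 2.30 CPM of Cyp26a1. The neural progenitor gate held only 20 cells, under the minimum of 50, and 6 of them had 29 Cyp26b1 UMIs (40.8 CPM). In 17 of 46 sets the level was under 1 CPM.

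Cyp26c1 was found in few places. The Lum/Foxd1 cluster had 34.5 CPM (32.0 to 37.2), which was 10.99 times the next level (9.52 to 12.7), in endoderm (3.14 CPM, 2.77 to 3.55). With finer clusters, at a resolution of 2, the level in the matching cluster was 53.1 CPM. A cluster of 68 cells led by Prlr followed at 2.04 CPM, from 2 UMIs (0.247 to 7.36). Tied epithelium had 1.59, the Pax1/Vgll2 cluster 1.21 and a cluster led by Lhx2 1.10 CPM, and 40 of 46 sets were under 1 CPM. In the Pou3f3/Dcc cluster, the second place of Cyp26a1, it was only 0.425 CPM (0.204 to 0.782). A UMI was present in 34.1% of the Lum/Foxd1 cells (21.3% after thinning) and 3.19% of endodermal cells (1.52%), against 0.136% of erythroid cells.

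The cells with the most transcripts followed the same places. Of the 344 cells with at least 5 Cyp26a1 UMIs, 174 (50.6%) were in the Lum/Foxd1 cluster, 65 (18.9%) in the Pou3f3/Dcc cluster and 33 in endoderm. For Cyp26b1, 77 of 300 (25.7%) were in endoderm, 66 (22%) in endocardium and 34 in surface ectoderm. For Cyp26c1, 54 of 76 (71.1%) were in the Lum/Foxd1 cluster and 18 (23.7%) in endoderm. Counted as UMIs, Cyp26b1 led the next gene with an interval above 1 in 17 of 45 sets and Cyp26a1 in 10. In the other sets the leading gene was not set apart by its counts, and Cyp26c1 led in none of the 45, with a tie at 1 UMI with Cyp26a1 in macrophages.

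The libraries fell into separate ranges for Cyp26a1 and Cyp26c1, and overlapped for Cyp26b1. Cyp26a1 was at 1.78, 1.196, 0.802, 9.79, 5.37 and 6.79 CPM in libraries 1 to 6, and Cyp26c1 at 0.121, 0.0491, 0.0102, 2.72, 1.31 and 1.26 CPM. Libraries 4, 5 and 6 were thus above libraries 1, 2 and 3 for both, with no overlap. Cyp26b1 was at 3.196, 4.98, 2.80, 4.43, 4.98 and 5.12 CPM, where library 2 lay within the range of libraries 4 to 6. The same libraries 4, 5 and 6 share the most barcode sequences. Without the cells that carry a shared sequence Cyp26a1 was at 1.83, 1.27, 0.808, 10.9, 5.98 and 7.004 CPM and Cyp26c1 at 0.128, 0.0577, 0.0104, 3.07, 1.51 and 1.31 CPM, so both ranges stayed apart. Cyp26b1 was then at 2.78 to 5.08 CPM.

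Cell numbers in the 2 clusters followed the split. The Lum/Foxd1 cluster drew 1, 6, 1, 344, 213 and 166 cells from libraries 1 to 6, and the Pou3f3/Dcc cluster 36, 6, 1, 167, 135 and 258. Together they made up 0.574%, 0.2%, 0.0408%, 9.0%, 4.88% and 7.31% of the cells of each library. With 3.71% of all cells they held 54.7% of the Cyp26a1 UMIs and 61.7% of the Cyp26c1 UMIs, but 0.748% of the Cyp26b1 UMIs. Treatment and library cannot be told apart here, since the libraries are not paired with samples.

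Outside both clusters the difference between libraries was smaller but remained. Cyp26a1 was then at 1.51, 1.197, 0.802, 2.81, 2.49 and 3.24 CPM, and Cyp26c1 at 0.1, 0.0491, 0.0102, 0.792, 0.531 and 0.720 CPM. Libraries 4 to 6 were again higher than libraries 1 to 3 in both genes. Endoderm held 260 of the 449 Cyp26c1 UMIs and 451 of the 2518 Cyp26a1 UMIs outside both clusters. In endoderm Cyp26a1 was at 1.72, 0.170, 0.596, 9.32, 7.88 and 8.62 CPM. Endodermal Cyp26c1 was at 1.29, 0.510, 0, 5.49, 4.49 and 4.73 CPM, and the 0 in library 3 allows up to 0.256 CPM. Endodermal cells numbered 335, 340, 353, 414, 594 and 502, so libraries 4 to 6 also had more of them. CPM is relative to the UMIs of those cells, but can still vary with the kinds of endodermal cell that a library held. The thyroid and lung factor Nkx2-1 differed between libraries in endodermal cells without Cyp26c1. It was at 26.9, 15.4, 52.6, 65.7, 56.1 and 71.1 CPM in libraries 1 to 6. The part of such differences in the Cyp26 levels was not tested.

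Where the clusters were well sampled, their levels were high in each library. In libraries 4, 5 and 6 the Lum/Foxd1 cluster had Cyp26a1 at 117, 76.7 and 79.5 CPM and Cyp26c1 at 39.1, 34.3 and 25.7 CPM. The Pou3f3/Dcc cluster had Cyp26a1 at 40.3, 61.2 and 40.3 CPM in these libraries and at 47.0 CPM in the 36 cells of library 1. Its 6 cells from library 2 and single cell from library 3 had no UMI, which at this number of cells allows up to 20.6 and 534 CPM.

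Cyp26b1 varied between libraries without that split. Endocardium had 17.04, 20.3, 19.1, 18.03, 23.2 and 25.4 CPM, and endoderm 12.9, 24.6, 10.99, 17.04, 15.2 and 15.3 CPM. Surface ectoderm held 5.22 CPM in library 1, with 11.3 to 16.1 CPM elsewhere. The Neurog2/Galnt3 cluster ranged from 10.9 (library 3) to 44.5 CPM (library 1) and the Pax1/Vgll2 cluster from 19.2 (library 3) to 41.4 CPM (library 6). No library was lowest in all of these sets.

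In the endothelium Cyp26a1 also varied. Vascular endothelium had 8.61, 7.69, 1.51, 1.45, 6.98 and 9.32 CPM in libraries 1 to 6, with libraries 3 and 4 low. Cyp26b1 there was at 4.21, 9.97, 12.1, 9.73, 14.5 and 8.51 CPM, with library 1 low. These orders do not match the split in the whole libraries.

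**Figure D2:**
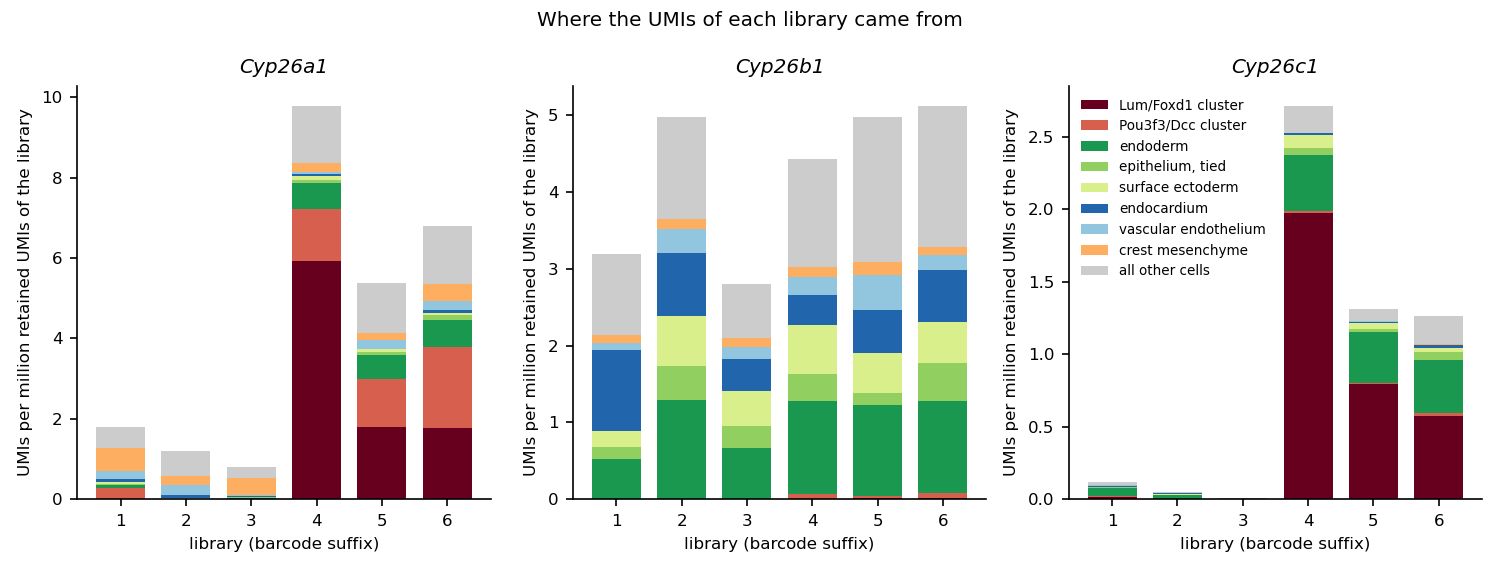
UMIs of each Cyp26 gene per 1000000 retained UMIs of the library (vertical axes, a different scale for each gene) in libraries 1 to 6, stacked by the cells they came from. The Lum/Foxd1 and Pou3f3/Dcc clusters (dark red and red) fill most of the Cyp26a1 column in libraries 4 to 6 and of the Cyp26c1 column in libraries 4 and 5 (47.1% in library 6). They hold no more than 1.62% of Cyp26b1 in any library, where epithelial and endothelial sets and all other cells each give a part.

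Cyp26a1 and Cyp26c1, the neighbours on chromosome 19, were found in the same cells. Of the 457 cells with Cyp26c1, 367 also had Cyp26a1 (80.3%, 76.4 to 83.9), against 4.61% of cells without Cyp26c1. In the other direction 18.3% of Cyp26a1 cells had Cyp26c1, against 0.265% of cells without Cyp26a1. At 10000 UMIs per cell the first share was 70.9% (168 of 237), against 2.41%. Cells with Cyp26c1 were no deeper than those without, with medians of 31594 and 32785 UMIs.

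The overlap held within single sets. In the Lum/Foxd1 cluster 232 of 249 cells with Cyp26c1 (93.2%) had Cyp26a1, against 35.9% of those without, and the share was 91.7%, 95.5% and 93.9% in libraries 4, 5 and 6. In endoderm it was 66 of 81 (81.5%) against 2.93%, with 20 of 25, 20 of 21 and 24 of 27 in the same libraries, but 2 of 5 in library 1 and 0 of 3 in library 2. Surface ectoderm had 10 of 21 (47.6%). Outside the Lum/Foxd1 cluster the share was 64.9% (135 of 208).

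In the Lum/Foxd1 cells Cyp26c1 rose with the number of Cyp26a1 UMIs up to 2 to 3 and changed little above that. In cells with 0, 1, 2 to 3, 4 to 7 and 8 or more Cyp26a1 UMIs (326, 85, 100, 139 and 81 cells), Cyp26c1 was at 3.38, 16.6, 58.9, 73.9 and 66.6 CPM. The share with a Cyp26c1 UMI rose over the same bins from 5.21% to 22.4%, 60%, 68.3% and 71.6%. The intervals of the upper 3 bins overlapped in share, so the rise lay between 0 and 2 to 3 UMIs. Median depths were 26588, 24469, 26188, 27624 and 31765 UMIs, which is highest in the last bin. Cells with Cyp26a1 alone numbered 173, cells with Cyp26c1 alone 17, and 309 had neither.

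**Figure D3:**
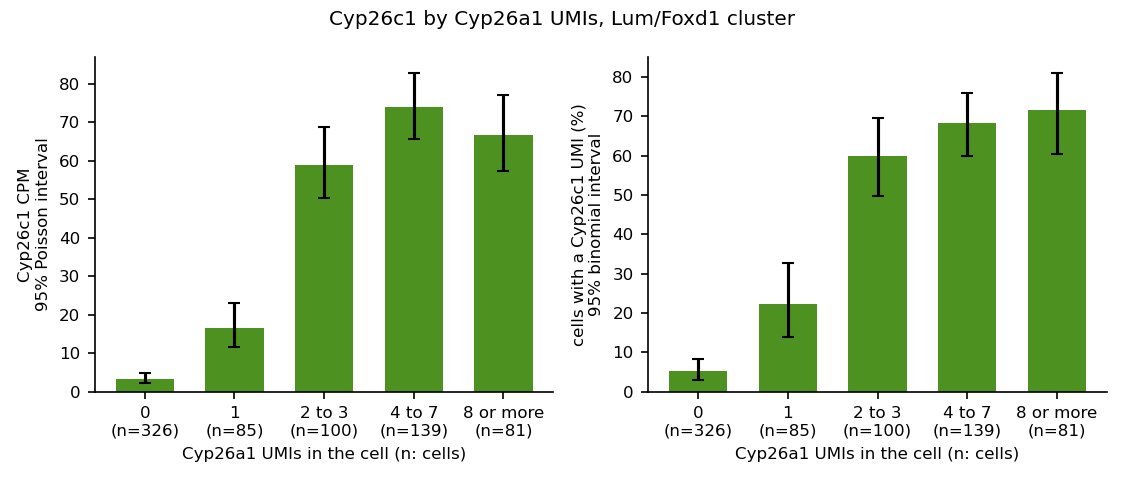
Cyp26c1 in the 731 cells of the Lum/Foxd1 cluster by the number of Cyp26a1 UMIs in the cell (horizontal axes), as CPM with 95% Poisson intervals (left) and as the percentage of cells with a UMI with 95% binomial intervals (right). Both climb from cells with 0 Cyp26a1 UMIs (3.38 CPM, 5.21%) to cells with 2 to 3 (58.9 CPM, 60%) and change little above that.

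Cyp26b1 was not paired in this way over all cells. Of its cells 4.93% also had Cyp26a1, against 5.61% of cells without it, and 116 cells had both. In endoderm, where all 3 genes were detected, Cyp26b1 was found in 7.97% of Cyp26a1 cells against 17.7% of the others, and in 2 of 81 Cyp26c1 cells (2.47%) against 17.6% of the others. The endodermal cells with Cyp26c1 were deeper than the others (34996 against 29995 median UMIs). Not every set had lower shares: Cyp26b1 was found in 6 of 15 Cyp26c1 cells of the tied epithelium (40%, against 22.7%) and in 3 of 21 of surface ectoderm (14.3%, against 14.2%). Outside the Lum/Foxd1 cluster the share was 10.1% against 6.64%. In the Lum/Foxd1 cluster Cyp26b1 had 6 UMIs in 731 cells.

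Partner genes were then compared between cells with and without a UMI of a member, within 1 set. A gene is called higher or lower where its CPM differed at least 2-fold, with at least 20 CPM on either side. A gene named for its ratio also kept its direction in every library with at least 20 cells on both sides. Since no replicate stands behind these folds, they describe the cells and carry no test.

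In the Lum/Foxd1 cluster 405 cells had Cyp26a1 and 326 did not, and 0.594% of 6897 genes were higher and 2.0% lower. Higher genes included the carrier Crabp1 (321 against 86.8 CPM), the Iroquois factors Irx2 (46.8 against 11.5) and Irx1 (90.3 against 27.1), the coactivator Eya4 (121 against 38.8) and the matrix protein Spp1 (47.1 against 8.57). Lower genes included the transcription factors Tbx15 (4.25 against 58.7), Zic1 (3.15 against 38.2) and Foxl1 (2.72 against 28.7), and Adamtsl1 (19.8 against 192). Crabp1 was at 352 against 117 CPM in library 4, 285 against 55.7 in library 5 and 281 against 79.6 in library 6, while Spp1 differed least in library 6 (22.8 against 20.9). Depth was similar, at medians of 27624 and 26588 UMIs.

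Among retinoic acid genes that reached 20 CPM on either side, most lay within 2-fold between the cells of this cluster. Only 2 of 9 synthesis and uptake genes reached it, and the others were not called either way. Of 7 carriers and receptors measured above 20 CPM, Crabp1 was higher and the receptor gene Rarb lower (11.997 against 45.3 CPM), and the other 5 lay within 2-fold. Among 7 targets only Rarb was called, lower. Of 2 synthesis and uptake genes, 2 Hox genes and 8 cell cycle genes, only Hoxa2 was called, higher (74.4 against 36.1 CPM). Of 5 segmentation and somite genes Tbx18, Foxc2 and Foxd1 were lower, with Foxd1 at 219 against 482 CPM. The median log2 ratio was -0.45 for the 2 synthesis and uptake genes, -0.06 for carriers and receptors, 0.32 for targets and -1.01 for segmentation genes, beside 0.01 over all genes.

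Between cells with and without Cyp26c1 in the same cluster (249 against 482), 0.393% of genes were higher and 1.94% lower. Irx2 was at 62.8 against 13.7 CPM, the protease Corin at 49.9 against 12.4 and Crabp1 at 372 against 133. Mpped2 was at 21.5 against 226 CPM, the matrix gene Vtn at 0.665 against 23.1 and Rarb at 9.57 against 35.9. Of the synthesis and uptake genes under 20 CPM, Aldh1a2 (0.399 against 4.04 CPM) and Stra6 (2.26 against 6.41) were lower in value. Aldh1a1, Aldh1a3, Rdh11, Rbp4 and Dhrs3 lay within 2-fold. Crabp1, Irx2 and Rarb went the same way as for Cyp26a1, but 232 of the 249 cells are also Cyp26a1 cells, so the comparisons share their cells.

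Among Cyp26a1 cells alone, those that also had Cyp26c1 (232) were set against those that did not (173): 0.0880% of genes were higher and 0.337% lower. Corin (49.6 against 18.1 CPM), Irx2 (62.6 against 23.5) and Arid3b (120 against 54.2) were higher. The forkhead genes Foxf1 (5.43 against 31.5) and Foxf2 (9.29 against 25.4), and Lum, the leading gene of the cluster (23.6 against 98.6), were lower. Among list members at 20 CPM or more in either group, none passed 2-fold here, but all 5 segmentation genes tested were lower in value, with a median log2 ratio of -0.81 beside 0.01 over all genes (Foxd1 at 159 against 308 CPM).

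The Pou3f3/Dcc cluster gave nearly no partners. Between 331 cells with Cyp26a1 and 272 without, 0% of 6318 genes were at least 2-fold higher and 0.0633% lower, which is 4 genes. They were Col25a1 (12.8 against 33.3 CPM), Mpped2 (11.8 against 27.9), Tbx3 (13.96 against 30.8) and Barx1 (53.3 against 111), the last a homeobox gene of arch mesenchyme. No gene of the 6 lists was called.

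In vascular endothelium Cyp26a1 went with arterial genes. Its 75 cells, against 700 without, had the gap junction genes Gja4 at 905 against 80.5 CPM and Gja5 at 133 against 9.24, the Notch target Hey2 at 50.1 against 4.28 and Tmem100, a gene of arterial endothelium, at 310 against 20.3. The venous factor Nr2f2 was at 36.96 against 204 CPM, and Aplnr (12.7 against 96.5), Nrp2 (23.05 against 166) and Stab2 (1.99 against 27.2) were also lower. Over all genes 3.99% were higher and 2.52% lower. In the gene lists, Crabp1 (5.17 against 25.3 CPM) was lower among 5 carriers and receptors tested, Nr2f2 among 6 targets, Hoxa5 (8.74 against 20.04) among 2 Hox genes and the proliferation gene Mki67 (50.9 against 126) among 8 cell cycle genes. Foxc2 was higher (60.4 against 24.7 CPM) among 2 segmentation genes. The Cyp26a1 cells were shallower, at 27678 against 36711 median UMIs.

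Only library 2 had at least 20 Cyp26a1 cells here (21), and libraries 1, 4, 5 and 6 went the same way. Gja4 was at 1233, 928, 486, 793 and 882 CPM with Cyp26a1 in libraries 1, 2, 4, 5 and 6 (17, 21, 4, 18 and 14 cells) and at 42.5 to 119 CPM without. Nr2f2 was at 0, 44.2, 31.9, 51.0 and 31.5 CPM with it and at 156 to 235 CPM without, and the 0 allows up to 6.44 CPM. The single Cyp26a1 cell of library 3 had no Gja4 UMI and Nr2f2 at 197 CPM. In endothelial cells tied between gates Gja4 was at 1027 CPM in 39 Cyp26a1 cells and 154 CPM in 189 others. In endocardium, with 27 Cyp26a1 cells against 1011, all 7 artery genes were higher in value, but only Gja5 (35.8 against 2.95 CPM) and Hey1 (68.4 against 21.4) by more than 2-fold. Gja4 there was at 156 against 131 CPM. Of the vein genes Nr2f2 lay within 2-fold (121 against 133 CPM), and Nrp2 was higher (43.2 against 21.3). For Cyp26b1 in vascular cells Gja4 was at 170 against 139 CPM and Nr2f2 at 234 against 182, both within 2-fold, while Stab2 was higher (57.5 against 18.6). The 12 artery and vein genes were chosen after these values were seen. In vascular endothelium Ephb4 alone of them lay within 2-fold for Cyp26a1 (47.7 against 51.7 CPM).

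Endocardial cells with Cyp26b1 (224 against 814) differed in other genes, with 1.19% of genes higher and 0.559% lower. They had Fam155a at 51.9 against 3.01 CPM, Nckap5 at 108 against 15.1, Ccdc141 at 247 against 46.2 and the water channel Aqp1 at 23.5 against 2.56. The Iroquois factor Irx5 (61.0 against 197) and Etv2, a factor of early endothelial cells (21.0 against 61.5), were lower. Ccdc141 was higher in all 6 libraries, from 83.5 against 39.6 CPM in library 3 to 344 against 31.2 in library 6. Fam155a was at 1.18 against 1.46 CPM in library 4, which had 18 Cyp26b1 cells, and at 9.01 to 104 against 1.23 to 15.6 CPM in the others.

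Among retinoic acid carriers and receptors in endocardium, the carriers Fabp5 (2609 against 1089 CPM) and Crabp1 (47.9 against 17.3) were higher, which is 2 of the 4 list members measured, and of 6 targets none was called. Cardiac muscle markers moved with the same cells: Tnnt2 was at 128 against 28.5 CPM, Myl7 at 51.8 against 15.6 and Ttn at 22.8 against 6.04, which is 3 of 8 cardiomyocyte markers called higher. Of the other 5, Myl4 and Tnni1 lay within 2-fold, and Actn2, Myh6 and Nppa were under 20 CPM. In cardiomyocytes Cyp26b1 itself was at 0.358 CPM. The part of muscle RNA in this pattern was not tested.

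**Figure D4:**
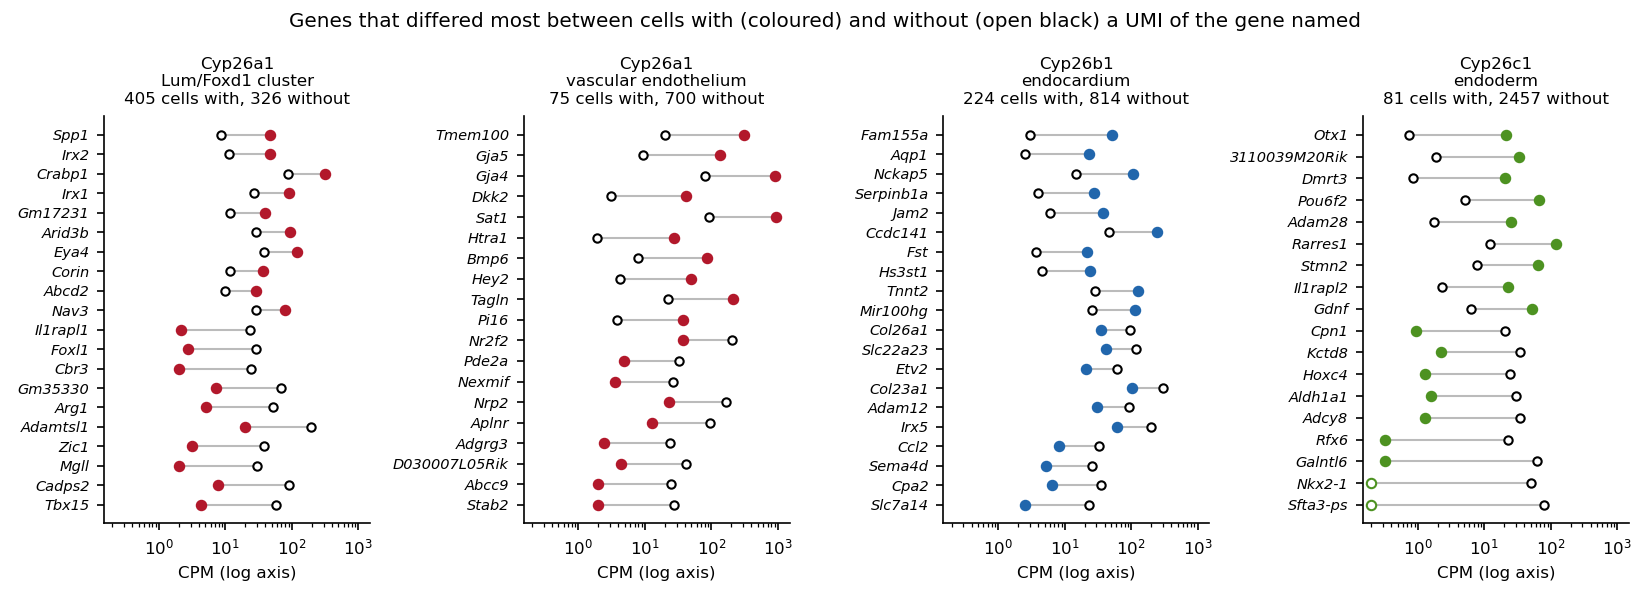
Levels in CPM (log axes) of up to 10 genes with the largest ratios in each direction between cells with a UMI of the member (coloured points) and cells without (open black points), in 4 sets, an open coloured point on the left edge marking 0 UMIs. Arterial genes such as Gja4 (905 against 80.5) stand out for Cyp26a1 in vascular endothelium, and Nkx2-1 is at 0 in the endodermal cells with Cyp26c1.

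Endoderm held all 3 genes, in cells that differed in their regional factors. The 435 cells with Cyp26b1 had higher Tlx1 (26.02 against 5.76 CPM), Angpt1 (112 against 36.5), the heart and pharynx factor Nkx2-5 (42.3 against 14.3) and Edn1, the endothelin ligand (78.4 against 31.7). They had lower Nkx2-1, the thyroid and lung factor (20.03 against 55.7), the proteoglycan gene Dcn (28.7 against 114), Foxa2 (25.3 against 58.8) and Hoxb4 (14.2 against 35.2). This direction held in all 6 libraries for each of these 8 genes. Few genes were involved, 0.391% higher and 0.405% lower.

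Endodermal cells with Cyp26c1 (81 against 2457) had 1.45% of genes higher and 2.47% lower. Most of the 81 came from libraries 4 to 6, but the 2457 came from all 6, so pooled values can also carry library differences. Higher were the head factor Otx1 (21.3 against 0.729 CPM), Dmrt3 (20.7 against 0.854) and Rarres1, named for its response to retinoids (120 against 12.2). Nkx2-1 had 0 UMIs in these cells, which allows up to 0.956 CPM, against 50.8 CPM in the others. The anterior Hox gene Hoxb1 (5.098 against 36.6) and the synthesis enzyme Aldh1a1 (1.59 against 29.7) were lower. Of 4 synthesis and uptake genes measured, Aldh1a1 was the 1 lower and Rbp4, the retinol carrier of plasma, the 1 higher (22.6 against 10.98). In libraries 4, 5 and 6, with 25, 21 and 27 such cells, Nkx2-1 was at 0 in each and Otx1 at 29.1, 27.9 and 13.5 CPM, against 1.397, 0.327 and 1.45 CPM without Cyp26c1.

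Among retinoic acid targets in endoderm, the Hox cofactor Meis1 (61.2 against 164 CPM) and Tshz1 (25.8 against 57.8) were also lower with Cyp26c1, and Nr2f1 was higher (47.2 against 19.7). Hoxb4 was lower as well (5.42 against 32.2). None of 6 carriers and receptors and none of 8 cell cycle genes passed 2-fold. The 138 cells with Cyp26a1, of which 66 are the same cells, had Nkx2-1 at 6.25 against 51.9 CPM, Rarres1 at 95.8 against 10.7 and Dcc at 63.4 against 6.003. For them 0.750% of genes were higher and 0.980% lower, with Nr2f1 the single target called and no Hox gene. Libraries 4, 5 and 6 gave 36, 43 and 46 of the Cyp26a1 cells, so these pooled values can carry library differences too.

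The gate shares epithelial markers with surface ectoderm, so layer markers were read in the same cells. At least 1 ectodermal marker was present in 60.5% of the endodermal cells with Cyp26c1 and in 55.7% of those without. The endodermal factor Foxa1 was at 58.0 and 55.3 CPM, while Shh (48.7 against 109) and Foxa2 (25.8 against 53.4) were lower with Cyp26c1.

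In the tied epithelium 135 cells with Cyp26b1, against 448, had higher Hoxa2 (44.5 against 15.5 CPM), Hoxa3 (28.1 against 10.1) and Nkx2-5 (26.2 against 8.92), and lower Rarres1 (24.2 against 174) and the thyroid factor Pax8 (10.2 against 36.1). Over all genes 0.256% were higher and 0.612% lower. In the Pax1/Vgll2 cluster 85 cells against 192 had higher Bmp4 (57.6 against 21.9 CPM), Tbx3 (29.1 against 9.22) and Hoxa3 (38.4 against 19.2), and lower Ntn1, a guidance cue (5.53 against 37.96), with 0.420% higher and 0.912% lower. Library 6 alone had 20 cells on both sides in that cluster.

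Genes for making and receiving retinoic acid had their own places. Aldh1a2, the main embryonic synthesis enzyme, was highest in a cluster led by Cldn11, Ppfia2 and Aldh1a2 itself (205 CPM), with 101 in posterior second heart field and foregut mesenchyme and 81.2 in epicardium. In the Lum/Foxd1 and Pou3f3/Dcc clusters it was at 2.72 and 0.340 CPM, against 19.4 and 19.5 in all other cells. Aldh1a1 was at 0.291 and 0.213 CPM there, and was highest in a cluster led by Aldh1a1 and Ctxn3 (96.8) and in the Pax1/Vgll2 cluster (86.5), the leading place of Cyp26b1.

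With all cell types pooled, Aldh1a2 was found in 9.14% of Cyp26a1 cells and 15.1% of the rest, and in 3.28% of Cyp26c1 cells and 14.9% of the rest. For Cyp26b1 these shares were close, 13.8% and 14.8%. The Lum/Foxd1 and Pou3f3/Dcc clusters, low in Aldh1a2, held 405 and 331 of the 2003 Cyp26a1 cells. They also held 249 and 8 of the 457 Cyp26c1 cells. The part of cell type in the pooled shares was not tested. In the Cldn11/Ppfia2 cluster itself 12.2% of cells had Cyp26b1 (4.77 CPM), and Aldh1a2 was present in 96.6% of these and 93.4% of the others. The Pax1/Vgll2 cells with Cyp26b1 had Aldh1a1 in 31.8%, and those without in 28.1%. Cyp26b1 was thus seen in cells that also had a synthesis enzyme, at shares close to those of the cells without Cyp26b1.

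Set against all other cells, the 2 Cyp26a1 clusters shared some genes of the pathway lists and differed in others, which is a description only, since these genes entered the clustering. In the Lum/Foxd1 cluster 3.22% of genes were at least 2-fold higher and 4.76% lower, and in the Pou3f3/Dcc cluster 1.66% and 8.09%. Of 7 retinoic acid targets tested in each, only the nuclear receptor gene Nr2f1 was higher, in both (323 and 570 CPM, against 116 and 111). No target was lower in the Lum/Foxd1 cluster, but 2 were in the Pou3f3/Dcc cluster, Rarb and Tshz1 (9.61 against 41.9 CPM). Hoxa2 was higher in both (57.9 and 84.5, against 24.3 and 23.7). Hoxb4 was lower in both (2.23 and 0.298, against 28.8 and 28.9), as was Hoxb3 (9.60 and 2.81, against 23.4 and 23.6). Of 12 segmentation genes, 5 were tested in the first cluster and 3 in the other, and Tbx18 and Foxd1 went opposite ways. In the first they were higher (77.8 and 332 CPM, against 24.5 and 17.3), as were Pax9 and Foxc2. In the other they were lower (0.213 and 6.63, against 25.8 and 22.5), and Meox1 was higher (66.6 against 16.4). Meox1 was above the rest in the first too, within 2-fold (29.9 against 17.1). Of 7 carriers and receptors none was called in the first, while Crabp1 was higher (861 against 311) and Rarb lower (1.96 against 49.99) in the other. All 8 cell cycle genes stayed within 2-fold in both.

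**Figure D5:**
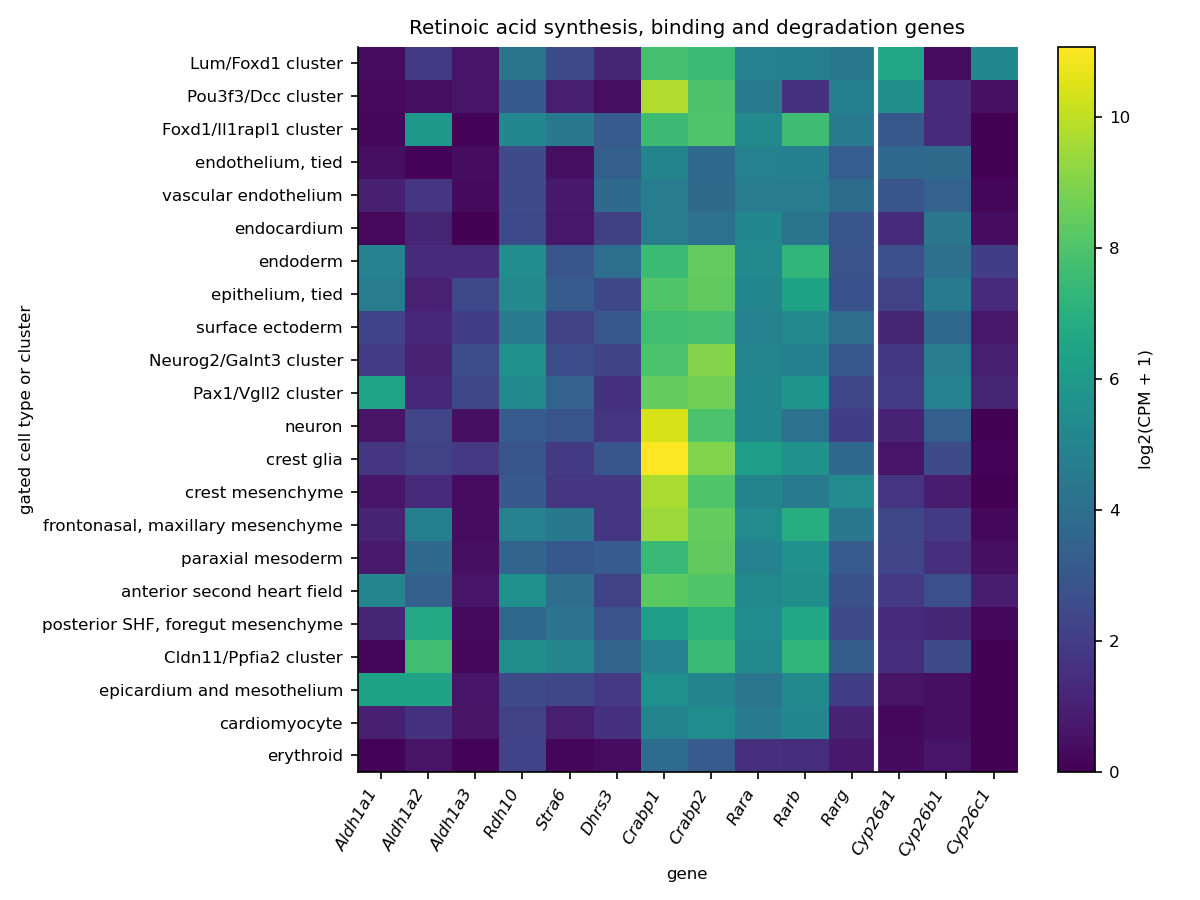
Levels as log2(CPM + 1) (colour) of genes for retinoic acid synthesis, uptake, binding and reception and of the 3 Cyp26 genes (columns, the Cyp26 genes right of the white line) in 22 gated cell types, tied sets and clusters (rows). Aldh1a2 is brightest in the Cldn11/Ppfia2 cluster (205 CPM) and dark in the Lum/Foxd1 and Pou3f3/Dcc clusters (2.72 and 0.340 CPM), where Cyp26a1 is brightest.

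Over the 19 gated cell types of at least 50 cells, the genes most like each member by Pearson's r of log2(CPM + 1) were Ccser1 (0.88) and Hmces (0.74) for Cyp26a1, Ripply3 (0.88) and Gldc (0.87) for Cyp26b1, and Foxa1 (0.94), Gm12446 (0.92) and Nkx2-1 (0.89) for Cyp26c1. The sets come from the same 6 libraries, and genes high in 1 set weigh heavily, so these are descriptions. Foxa1 is also a marker of the endoderm gate, where Cyp26c1 was highest among the gates. Its likeness over the gates was therefore partly fixed by the gating. Between the members themselves r was 0.53 (Cyp26a1 and Cyp26c1), 0.61 (Cyp26a1 and Cyp26b1) and 0.56 (Cyp26b1 and Cyp26c1) over the gates. Over 45 sets with clusters included they were at 0.58, 0.19 and 0.14.

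For some genes likeness over sets went with a lower level in the cells with a member. Over the 45 sets Tbx15 was most like Cyp26a1 (0.72) and Gm35330 most like Cyp26c1 (0.69), both with their highest level in the Lum/Foxd1 cluster, yet within that cluster both were lower in Cyp26a1 cells (Tbx15 at 4.25 against 58.7 CPM, Gm35330 at 7.15 against 68.3). Nkx2-1 was among the genes most like Cyp26c1 over gates and had no UMI in the endodermal cells with Cyp26c1. Ripply3, a pharyngeal repressor, led for Cyp26b1 over both the gates and the 45 sets.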

How the data were processed

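The authors deposited 1 matrix of whole UMI counts for genes by cells, whose header names Cell Ranger 5.0.0, and the submitters' processing notes add CASAVA 1.8, Seurat 4 and mm10. Everything after the deposited counts was computed here with Python 3.11.15, numpy 2.4.6, scipy 1.17.1, pandas 2.3.3, scikit-learn 1.9.0, python-igraph 0.11.9 and matplotlib 3.10.9. Retained libraries held 195763232 to 245913073 UMIs. A cell carried a marker at 10% or more of that marker's 99th percentile, and at least 1 UMI. A gate needed at least 3 markers, or the smallest larger number that cells reached 4 times as often as unrelated markers would give. This count rule was set on the markers after they were viewed, never on Cyp26 genes. Ungated cells were clustered on 2000 variable genes without Cyp26 and sex-linked genes, with 30 components, 20 neighbours and Leiden resolution 1. Doublets were kept, and an alternative left out the 1746 highest-scoring cells. Levels are summed UMIs per 1000000 with exact Poisson intervals, ratios and shares with exact binomial intervals. Genes named are the members, list genes, the 5 with the highest Pearson's r for each member over gates (genes at 20 CPM or more) and the 10 with the largest ratio in each direction between cells with and without a member. Sequences are RefSeq's, of build GRCm38.p6, with first exons from GENCODE M21, and 3 of 3 members matched. The members, marker lists and gene lists (retinoic acid synthesis and uptake, carriers and receptors, targets, anterior-posterior Hox code, cell cycle, segmentation and somite) were chosen with earlier results of these data known. Partner genes by library, artery and vein genes, cardiac muscle markers and likeness over clusters were added after values were seen. Alternatives were a looser cell filter, 1 marker more per gate, thinning, other resolutions, no shared barcodes, no likely doublets, another pseudocount, Spearman's rho and each library left out. The ratio and interval steps were tested on simulated data. Some genes that the naming rule gave are not reported here.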

Additional observations from a re-analysis of the deposited data

Results flagged for a closer look

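The barcodes left out by the cell filter, 17029 for too few genes and 371 for mitochondrial UMIs, also held Cyp26 transcripts. They had 106 UMIs of Cyp26a1 (2.16 CPM, 1.77 to 2.62), 125 of Cyp26b1 (2.55 CPM, 2.12 to 3.04) and 13 of Cyp26c1 (0.265 CPM, 0.141 to 0.454). Each is listed only because it lies in barcodes that no comparison above used and exceeds what a count of 0 allows. That rule does not mark a level as unusual. All 3 levels were below those of the retained cells (4.24, 4.28 and 0.893 CPM).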

How the results depend on the processing

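No paired analysis was possible because no source used here pairs the barcode suffix with a sample. The edgeR and DESeq2 fits of streptozotocin against vehicle were not run for the same reason. The ratio of Cyp26a1 between vascular endothelium and endoderm (1.19) was unsteady. It was 1.65 with cells thinned, 1.63 without shared barcodes, 1.42 without likely doublets, and 0.972 to 1.58 with each library left out in turn. It turned below 1 without library 2 and was highest without library 4. The cause was not tested. For Cyp26b1 the ratio of endocardium to endoderm ran from 1.18 to 1.36 over libraries left out, and for Cyp26c1 the ratio of endoderm to anterior second heart field (3.88) ran from 2.78 to 17.6, the last without library 6. With 1 marker more per gate this ratio had no value. Co-detection was 70.9% thinned and 76.4% to 82.0% over libraries left out. The alternatives for the 2 clusters were chosen after seeing the data. In the Lum/Foxd1 cluster Cyp26a1 was 87.2 CPM with the looser filter, 85.1 with 1 marker more, 75.1 at resolution 0.5 and 135.0 at resolution 2, and 77.0 to 103.9 over libraries left out. Cyp26c1 there was 31.2, 30.3, 26.3 and 53.1, and 30.3 to 37.2. The Pou3f3/Dcc level of Cyp26a1 was 30.9 at resolution 0.5 and 40.5 to 48.5 over libraries left out. Of the 5 genes most like Cyp26a1, Cyp26b1 and Cyp26c1, 4, 3 and 2 stayed with a pseudocount of 10, and 2, 1 and 0 with Spearman's rho. Depth limits Cyp26c1 most, at 1171 UMIs.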
